A study of Mus musculus with 12 samples.

Results

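The 34 genes described here carry glucose from uptake through glycolysis to pyruvate, and pyruvate on to lactate or into the mitochondrial pyruvate dehydrogenase reaction. They were taken as a fixed list of gene symbols out of the 39017 genes of the deposited gene table. The rule, pathway membership, uses no measured value, but the list was chosen with earlier results of these data known. All 34 were found in the table and all 34 passed the filter on low counts. They cover glucose uptake, the 10 enzyme steps of glycolysis, the PFKFB enzymes that set the level of the activator fructose 2,6-bisphosphate, lactate dehydrogenase, the lactate and pyruvate carriers, and the pyruvate dehydrogenase complex with its inhibitory kinases.

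Glycolysis splits glucose into pyruvate in the cytosol and yields ATP without oxygen. Pyruvate is then either reduced to lactate and exported, or oxidized to acetyl-CoA in mitochondria, and the pyruvate dehydrogenase kinases decide between these fates by phosphorylating and so inhibiting the complex. Most steps have several isozymes encoded by separate genes. Pluripotent cells are known for high glycolytic activity, naive cells use both glycolysis and respiration, and many glycolytic genes are textbook targets of HIF1 and MYC.

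The 12 poly(A) RNA libraries came from male mouse embryonic stem cells (mESCs), with 3 biological replicates in each of 4 groups. J1 cells are wild type. 3B3-3l cells are Dnmt3a-/-, Dnmt3b-/- cells with a Dnmt3b transgene and a blasticidin-selected Dnmt3l transgene, both driven by the constitutive CAG promoter. The sources used here do not say whether this line is 1 clone. Serum medium was high-glucose DMEM with 15% fetal calf serum, 1 mM sodium pyruvate and, by the labels, 500 U/ml LIF. 2i medium was N2B27 with the MEK inhibitor PD0325901 at 1 µM, the GSK3 inhibitor CHIR99021 at 3 µM and 1000 U/ml LIF, so the media differ in base, serum and added pyruvate as well as in the inhibitors. The study's methods name a single LIF dose for both media, so whether LIF differed between them is not settled by these sources. In serum, J1 cells grew on inactivated feeder fibroblasts, which were depleted before analysis, and 3B3-3l cells on gelatin, so that line and culture surface cannot be told apart in that medium. The study compared the transcriptome of 3B3-3l cells in 2i with those of wild-type cells in 2i and of 3B3-3l cells in serum.

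Libraries held 37050652 to 44515395 estimated reads, and 3 counts correspond to 0.0674 to 0.081 CPM (reads scaled to a common library size). Dnmt3a stood at 166 to 167 CPM in J1 serum, 38.9 to 44.5 in J1 2i, 29.4 to 34.3 in 3B3-3l serum and 4 to 5.07 in 3B3-3l 2i. Dnmt3b stood at 404 to 427, 41 to 47.2, 866 to 927 and 914 to 936 CPM in the same groups, and Dnmt3l at 285 to 285, 47.9 to 55.5, 448 to 511 and 285 to 294 CPM. All 7 embryonic stem cell markers examined were detected in every group, with a summed level of 3860 to 5240 CPM. Of these 7, 2 were called higher and 4 lower in 2i in J1, and 3 higher and 3 lower in 3B3-3l. The summed level of 12 fibroblast markers was 78.1 to 84.7 CPM in J1 serum, 42.4 to 43.5 in J1 2i, 110 to 129 in 3B3-3l serum and 29.9 to 31.2 in 3B3-3l 2i. Lum, a fibroblast marker, was at 0 in J1 serum, and Dcn, Lum and Twist2 were at 0 in both 2i groups. Of 8 fibroblast markers tested, 6 were called lower in 2i in J1 (32.9% of all genes tested) and 7 in 3B3-3l (32.7%), the direction of many members. In J1 1 was called higher, and Pdgfrb went from a mean of 6.31 CPM in serum to 19.4 CPM in 2i. The part of these markers in the results below was not tested. Summed markers of primitive endoderm (5.72 to 16.2 CPM), mesoderm (4.12 to 44 CPM) and trophoblast (98.4 to 224 CPM) stayed far below those of stem cells in every library. Of 6 primitive endoderm markers, 2 were called lower and 2 higher in 2i in J1, and 5 lower and 0 higher in 3B3-3l. All 3 mesoderm markers tested were called higher in 2i in each line. Of 5 trophoblast markers, 3 were called higher and 1 lower in each line. Over all genes tested, 33.2% were called higher and 32.9% lower in J1, and 32.7% and 32.7% in 3B3-3l. In bulk RNA, fewer cells of a type and less RNA per cell cannot be told apart.

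Before the levels, the start regions of 4 members are shown, since HIF1 and MYC bind short motifs that can be read from the letters. The genes are Slc2a1, which brings glucose in, Slc16a3, which exports lactate, and Pfkfb3, which raises fructose 2,6-bisphosphate, all among the members with the lowest 2i to serum ratios in 3B3-3l cells, and Hk1, which had the highest in both lines. Each run is the 250 bases before a transcription start, 5′ to 3′ on the gene's strand, from RefSeq on GRCm38.p6. Capitals mark ACGTG or GCGTG on either strand, so that CACGT and CACGC are marked too. Slc2a1 starts at the gene's annotated beginning, while the other 3 starts lie inside the annotated gene, and which start was used was not measured.
Slc2a1 (chr4:119108495-119108744, plus strand): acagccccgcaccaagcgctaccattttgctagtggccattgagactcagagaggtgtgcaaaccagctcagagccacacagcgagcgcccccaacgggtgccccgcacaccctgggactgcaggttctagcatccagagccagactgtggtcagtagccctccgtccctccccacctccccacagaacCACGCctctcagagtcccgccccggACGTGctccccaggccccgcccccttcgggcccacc
Slc16a3 (chr11:120948817-120949066, plus strand): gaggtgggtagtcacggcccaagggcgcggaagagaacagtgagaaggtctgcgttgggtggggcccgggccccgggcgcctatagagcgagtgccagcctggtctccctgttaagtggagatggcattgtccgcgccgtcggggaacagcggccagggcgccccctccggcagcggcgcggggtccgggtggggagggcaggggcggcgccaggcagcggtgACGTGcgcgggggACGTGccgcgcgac
Pfkfb3 (chr2:11502091-11502340, minus strand): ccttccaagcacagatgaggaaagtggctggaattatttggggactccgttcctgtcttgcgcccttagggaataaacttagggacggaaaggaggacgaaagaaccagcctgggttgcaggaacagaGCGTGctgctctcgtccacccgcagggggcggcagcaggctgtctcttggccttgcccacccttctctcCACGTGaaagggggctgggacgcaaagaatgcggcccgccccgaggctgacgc
Hk1 (chr10:62340422-62340671, minus strand): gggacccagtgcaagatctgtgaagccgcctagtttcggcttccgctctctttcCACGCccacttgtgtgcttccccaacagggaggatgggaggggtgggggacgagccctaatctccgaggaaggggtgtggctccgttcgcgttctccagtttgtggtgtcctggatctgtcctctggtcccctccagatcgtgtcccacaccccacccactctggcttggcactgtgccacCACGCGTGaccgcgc
The Slc16a3 window held 2 such motifs close to the start, and the Slc2a1 window held 2, the Pfkfb3 window 3 and the Hk1 window 3, counting each strand and overlapping matches. The Pfkfb3 window alone among them held the full CACGTG. Hk1 and Pfkfb3 each had 2 start regions in RefSeq, and the one with more of these motifs was printed. The other start region, over 300 bases, held 0 such motifs for Hk1 and 1 for Pfkfb3, without CACGTG. The motif counts of these 2 genes thus follow partly from that choice. Eno3, with a lower 2i to serum ratio in 3B3-3l than Slc2a1, was not printed, and its start region held 1.

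The same search covered 300-base start regions of all genes in the RefSeq table, in which 33 of the 34 members were matched. ACGTG or GCGTG, on either strand, was present for 28 of the 33 members (84.8%) and for 46.7% of 27025 genes. By start region the motif was present in 38 of 52 (73.1%) against 43.8% of 32851. CACGTG, which contains ACGTG and overlaps it, was present for 6 of the 33 members (18.2%) and for 8.1% of all genes, or in 11.5% of member start regions against 7.2% of all. Matches describe letters in a window and were not tested for enrichment or binding.

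In J1 cells, as many members rose as fell in 2i. 14 of 34 were called higher (background over all 17885 genes tested, 33.2% called higher) and 14 lower (background 32.9%), a gene being called at an adjusted p under 0.05 in the edgeR test. The median log2 fold change was -0.04, against 0.01 over all genes tested. Only Hk1 rose by 2-fold or more, and Pfkl, Eno3 and Slc16a3 fell by 2-fold or more. Both counts stood a little above their background.

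In 3B3-3l cells, most members fell in 2i. 22 of 34 were called lower (background 32.7%) and 6 higher (background 32.7%), with a median log2 fold change of -0.56 against 0.01 over all genes. 11 members fell by 2-fold or more and only Hk1 rose by that much. The 2 medium contrasts share no library. 14 members were lower in both lines and 5 were higher in both, namely Hk1, Pfkp, Pfkfb2, Pfkfb4 and Pgam2. 6 members (Slc2a3, Hk2, Tpi1, Gapdh, Eno2 and Slc16a1) were called higher in J1 and lower in 3B3-3l. Shares over all genes were not computed for these joint calls or for the 2-fold changes in each line. Those counts are a description only. The J1 calls of Eno2 and Slc16a1 were lost on leaving out single libraries and with length offsets (0.37, adjusted p = 0.119, for Eno2 and 0.12, adjusted p = 0.0615, for Slc16a1).

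**Figure D1:**
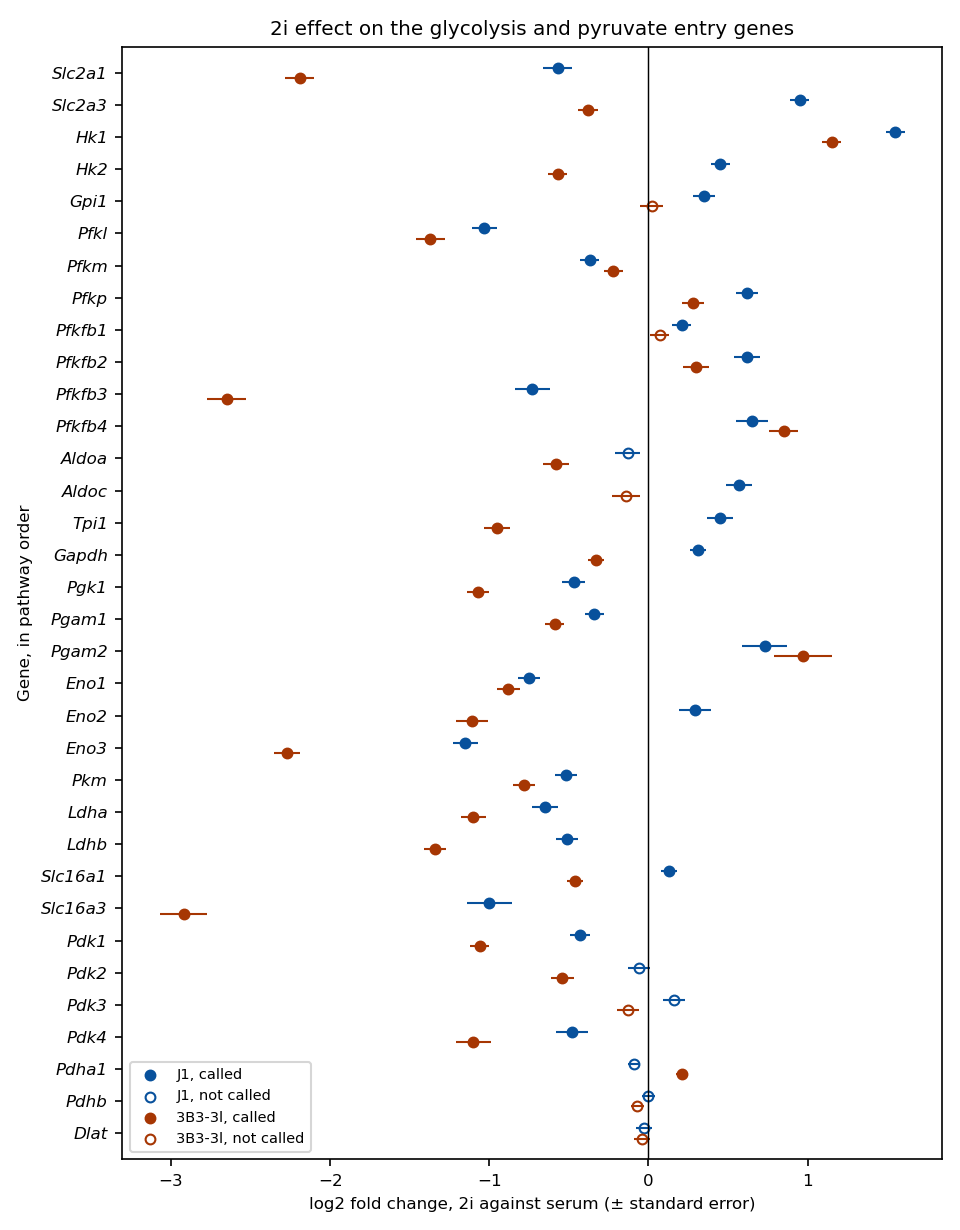
Log2 fold change of 2i against serum (x axis, with standard errors from the edgeR model, 3 libraries per group) for the 34 members in pathway order (y axis), in J1 (blue) and 3B3-3l (brown) cells, filled where called. Most brown points lie left of the blue ones, and the members whose blue point is right of 0 and brown point left of 0 include Slc2a3, Hk2, Tpi1 and Eno2.

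Whether 2i acted differently in the lines was tested as an interaction. The interaction was called lower in 3B3-3l for 25 of 34 members (background 18.3%) and higher for 1, Pdha1 (background 16.3%), with a median of -0.45 on the log2 scale against -0.03 over all genes. Between the lines in 2i, 20 members were lower in 3B3-3l (background 22.9%) and 6 higher (background 23%). Between the lines in serum, 12 members were higher in 3B3-3l (background 21.5%), 2 were lower (background 17.2%) and 20 were not called. The members called were thus mostly lower in 3B3-3l in 2i and mostly higher in 3B3-3l in serum. Markers of other cell types were also higher in 3B3-3l in serum, with 6 of 6 primitive endoderm markers (8.08 to 8.53 CPM summed in J1, 14.6 to 16.2 in 3B3-3l), 5 of 8 fibroblast, 3 of 5 trophoblast (98.4 to 111 CPM in J1, 183 to 224 in 3B3-3l) and 2 of 3 mesoderm markers tested called higher in the edgeR test. Their part in the serum result was not tested. These contrasts share libraries with each other, so their values are given side by side for each member.

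Uptake is the work of the facilitative glucose transporters GLUT1 (Slc2a1, ENSMUSG00000028645, chromosome 4, 119108745 to 119137330) and GLUT3 (Slc2a3, ENSMUSG00000003153, chromosome 6, 122727809 to 122802363). Coordinates here and below are of the whole gene, in GRCm38.p6. Slc2a1 stood at 647, 557 and 703 CPM in J1 serum, 392, 405 and 484 in J1 2i, 966, 1011 and 977 in 3B3-3l serum and 201, 211 and 234 in 3B3-3l 2i. The 4 groups did not overlap, and 3B3-3l cells were the highest in serum and the lowest in 2i. It fell in 2i in both lines, with a log2 fold change of -0.57 ± 0.09 (adjusted p = 2.63e-05) in J1 and -2.19 ± 0.09 (adjusted p = 5.1e-12) in 3B3-3l. Here and below ± after a log2 value is a standard error of the edgeR model, p is adjusted over all genes tested, and a difference of effects is the 3B3-3l log2 fold change minus that of J1. The effects differed by -1.62 ± 0.12 (adjusted p = 1.75e-07). Slc2a3 stood at 1230, 1095 and 1314 CPM in J1 serum, 2377, 2397 and 2276 in J1 2i, 1671, 1842 and 1809 in 3B3-3l serum and 1340, 1356 and 1385 in 3B3-3l 2i. Each J1 2i library lay above every other library. Slc2a3 rose in J1, with a log2 fold change of 0.95 ± 0.06 (adjusted p = 1.37e-09), and fell in 3B3-3l, at -0.38 ± 0.06 (adjusted p = 4.42e-05), a difference of -1.34 ± 0.09 (adjusted p = 4.04e-08). In serum both transporters were higher in 3B3-3l, by 0.63 ± 0.09 (adjusted p = 3.73e-05) for Slc2a1 and 0.55 ± 0.06 (adjusted p = 4.81e-06) for Slc2a3.

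In both lines the mixture of the transporters was near even in serum and stood nearer to GLUT3 in 2i. Slc2a1 made up 43.8% ± 0.298 (SD, n = 3) of the summed level per length of both genes in J1 serum and 21.6% ± 2.74 in J1 2i, and 45.7% ± 1.06 in 3B3-3l serum and 19.7% ± 1.01 in 3B3-3l 2i. Serum and 2i libraries did not overlap in either line (exact two-sided permutation test, p = 0.1, the smallest that 3 against 3 libraries allow, and 0.13 adjusted). In all, 120 such comparisons of shares were made over all steps and 4 contrasts, of which 92 stood at that smallest p, so none could pass 0.05.

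Hexokinases trap glucose as glucose 6-phosphate. Hk1 (ENSMUSG00000037012, chromosome 10, 62268855 to 62379920) is the widely expressed form and Hk2 (ENSMUSG00000000628, chromosome 6, 82725025 to 82774454) the regulated form of growing and insulin-responsive tissues. Hk1 stood at 67.3, 60.6 and 74.5 CPM in J1 serum, 196, 196 and 202 in J1 2i, 89.1, 91.4 and 88.7 in 3B3-3l serum and 188, 203 and 206 in 3B3-3l 2i. The 2i libraries of the lines overlapped and lay above all serum libraries. Hk1 rose in both lines, with log2 fold changes of 1.55 ± 0.06 (adjusted p = 4.67e-12) in J1 and 1.15 ± 0.06 (adjusted p = 1.27e-10) in 3B3-3l. The lines did not differ detectably in 2i, at 0.01 ± 0.06 (adjusted p = 0.947), and in serum Hk1 was higher in 3B3-3l by 0.41 ± 0.06 (adjusted p = 9.49e-05). Hk2 stood at 347, 311 and 367 CPM in J1 serum, 439, 468 and 494 in J1 2i, 359, 381 and 376 in 3B3-3l serum and 248, 243 and 262 in 3B3-3l 2i. It was highest in J1 2i and lowest in 3B3-3l 2i. Hk2 rose in J1, with a log2 fold change of 0.45 ± 0.06 (adjusted p = 9.15e-06), and fell in 3B3-3l, at -0.57 ± 0.06 (adjusted p = 6.46e-07), a difference of -1.02 ± 0.09 (adjusted p = 5.33e-07). The share of Hk1 in the summed level per length of the pair went from 23.1% ± 0.725 in J1 serum to 39.5% ± 1.24 in J1 2i, and from 27.1% ± 0.482 in 3B3-3l serum to 55.1% ± 1.31 in 3B3-3l 2i, with no overlap between media (exact permutation p = 0.1).

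**Figure D2:**
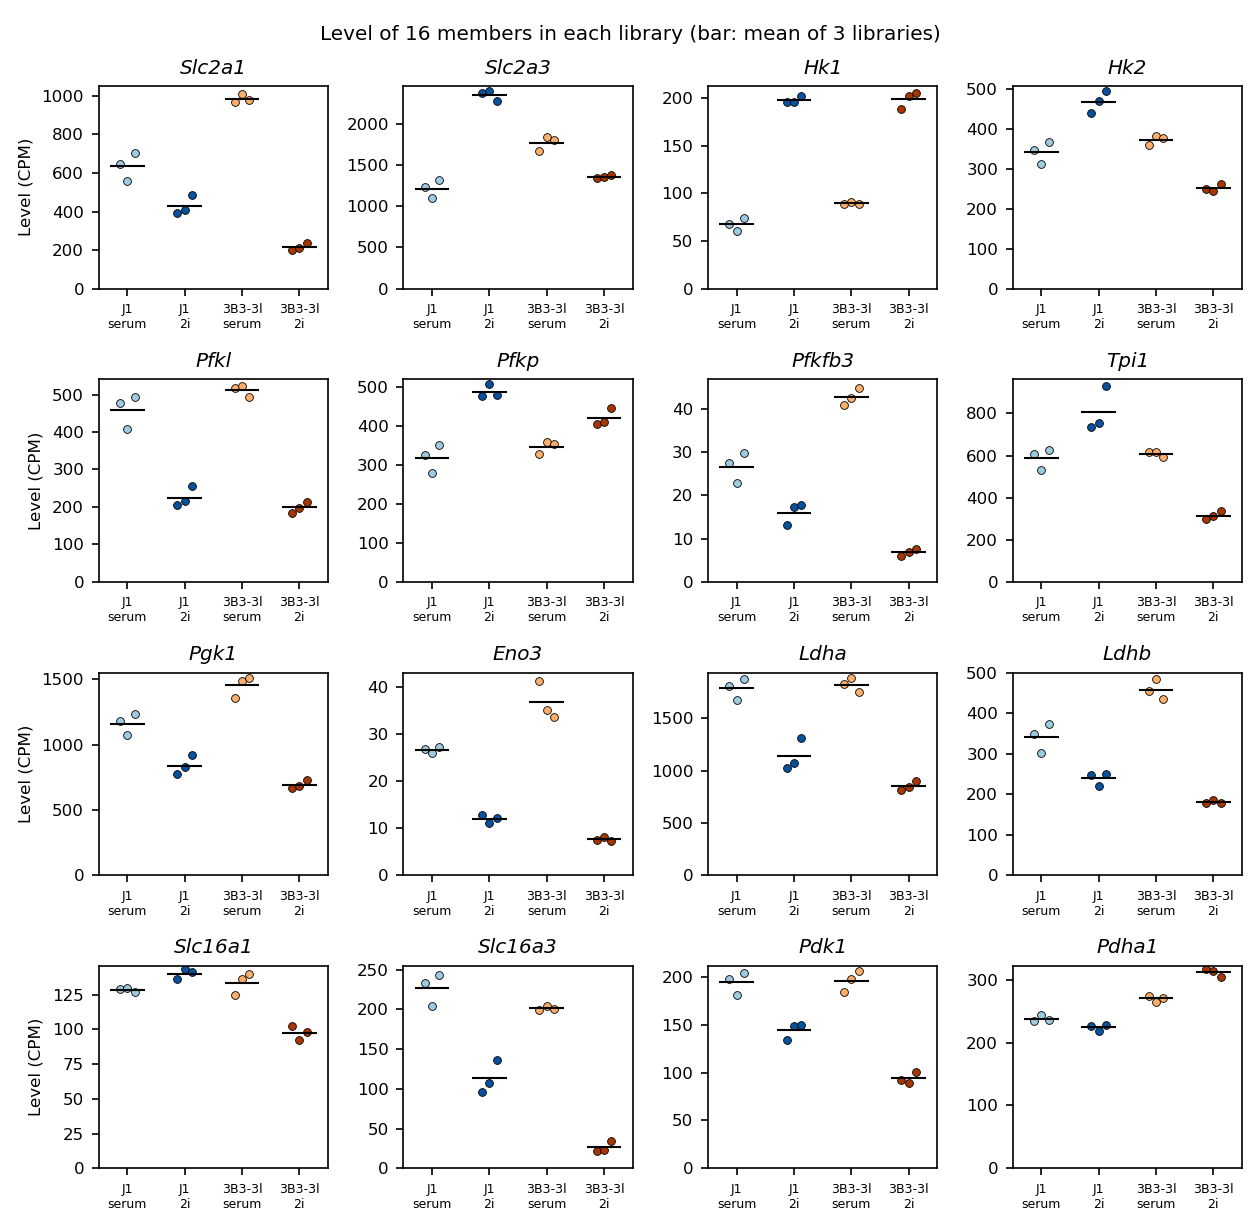
Level in CPM (y axis, linear and from 0) of 16 members in each library, 3 points per group for J1 serum, J1 2i, 3B3-3l serum and 3B3-3l 2i, with a bar at the mean. Slc2a1, Pfkfb3 and Slc16a3 are lowest in 3B3-3l 2i, Hk1 is high in both 2i groups, and Slc2a3, Hk2 and Tpi1 are highest in J1 2i.

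Gpi1, which turns glucose 6-phosphate into fructose 6-phosphate, stood at 629, 534 and 641 CPM in J1 serum, 727, 739 and 835 in J1 2i, 662, 691 and 653 in 3B3-3l serum and 639, 688 and 700.4 in 3B3-3l 2i. It rose in J1, at a log2 fold change of 0.35 ± 0.07 (adjusted p = 0.000373), and was not called in 3B3-3l, at 0.02 ± 0.07 (adjusted p = 0.863). The difference of the effects was -0.34 ± 0.10 (adjusted p = 0.0157). In 2i the log2 fold change of Gpi1 in 3B3-3l against J1 was small, -0.18 ± 0.07 (adjusted p = 0.0435), and called lower, a call that was lost on leaving out 3B3-3l 2i replicate 1 or 3, 3B3-3l serum replicate 2 or J1 2i replicate 3 (-0.21 to -0.12, adjusted p 0.0549 to 0.187).

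Phosphofructokinase commits sugar to glycolysis and exists as liver (Pfkl, ENSMUSG00000020277, chromosome 10, 77986947 to 78009807), muscle (Pfkm) and platelet (Pfkp, ENSMUSG00000021196, chromosome 13, 6579874 to 6649060) forms. Pfkl stood at 478, 407 and 492 CPM in J1 serum, 205, 214 and 255 in J1 2i, 518, 524 and 494 in 3B3-3l serum and 183, 198 and 214 in 3B3-3l 2i. In each line all 2i libraries were under all serum libraries. Pfkl fell in both lines, with log2 fold changes of -1.03 ± 0.08 (adjusted p = 2.39e-08) in J1 and -1.37 ± 0.09 (adjusted p = 7.27e-10) in 3B3-3l. The difference, -0.34 ± 0.12 (adjusted p = 0.0381), lost its call when any of 6 libraries was left out (3B3-3l 2i replicates 1 and 2, 3B3-3l serum replicates 1 and 2, J1 2i replicate 3 and J1 serum replicate 2), with values of -0.36 to -0.23 and adjusted p of 0.053 to 0.104. Pfkp stood at 324, 280.0 and 349.7 CPM in J1 serum, 476, 508 and 478 in J1 2i, 327, 357 and 354 in 3B3-3l serum and 404, 410.4 and 446 in 3B3-3l 2i. It rose in 2i without overlap in both lines, at log2 fold changes of 0.62 ± 0.07 (adjusted p = 1.13e-06) in J1 and 0.28 ± 0.07 (adjusted p = 0.00232) in 3B3-3l. The platelet form, which had 42.5% ± 1.33 of the summed level per length in J1 serum and 42.2% ± 1.68 in 3B3-3l serum, had 69.1% ± 1.99 and 68.2% ± 0.556 in 2i (exact permutation p = 0.1 in each line). Pfkl had 50.6% ± 1.41 in J1 serum and 25.4% ± 1.91 in J1 2i, and 51.0% ± 1.53 in 3B3-3l serum and 24.4% ± 0.286 in 3B3-3l 2i. Pfkm, at 39.7 to 60.4 CPM, fell in both lines, with log2 fold changes of -0.37 ± 0.06 (adjusted p = 7.3e-05) in J1 and -0.22 ± 0.06 (adjusted p = 0.00544) in 3B3-3l. It held 5.5% to 7.43% of the step.

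The PFKFB enzymes make and remove fructose 2,6-bisphosphate, the strongest activator of phosphofructokinase, and the Pfkfb3 enzyme has by far the highest kinase activity relative to phosphatase activity. Pfkfb3 (ENSMUSG00000026773, chromosome 2, 11471430 to 11554071), whose start region is printed above, stood at 27.4, 22.8 and 29.7 CPM in J1 serum, 13.1, 17.3 and 17.7 in J1 2i, 40.9, 42.5 and 44.9 in 3B3-3l serum and 5.92, 6.93 and 7.63 in 3B3-3l 2i. The groups did not overlap. Pfkfb3 fell in both lines, with log2 fold changes of -0.73 ± 0.11 (adjusted p = 3.21e-05) in J1 and -2.65 ± 0.12 (adjusted p = 1.92e-11) in 3B3-3l, a difference of -1.92 ± 0.17 (adjusted p = 5.77e-07). Between the lines, its log2 fold change of 3B3-3l against J1 was 0.68 ± 0.11 (adjusted p = 0.000141) in serum and -1.23 ± 0.13 (adjusted p = 1.17e-06) in 2i. Its share of the summed level per length of the 4 PFKFB genes was 29.8% ± 2.38 in J1 serum and 16.6% ± 2.72 in J1 2i, and 36.7% ± 0.207 in 3B3-3l serum and 7.51% ± 1.33 in 3B3-3l 2i, with no overlap between media.

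The other 3 PFKFB genes were not called lower in 2i in either line. Pfkfb1 had the highest level per length of the 4 in every group and stood at 15.1, 14.2 and 15.3 CPM in J1 serum, 17.4, 16.6 and 17.5 in J1 2i, 15.8, 16.3 and 17.1 in 3B3-3l serum and 16.9, 18.1 and 16.6 in 3B3-3l 2i. It rose slightly in J1, by 0.21 ± 0.06 (adjusted p = 0.00726), and was not called in 3B3-3l, at 0.07 ± 0.06 (adjusted p = 0.36). Pfkfb4, at 3.66 to 7.98 CPM, rose in both lines, with log2 fold changes of 0.65 ± 0.10 (adjusted p = 2.09e-05) in J1 and 0.85 ± 0.09 (adjusted p = 7.72e-07) in 3B3-3l. Pfkfb2, at 12.2 to 22.4 CPM, rose in both lines, with log2 fold changes of 0.62 ± 0.08 (adjusted p = 6.45e-06) in J1 and 0.30 ± 0.08 (adjusted p = 0.0042) in 3B3-3l. For Pfkfb2 the difference of the effects, -0.32 ± 0.12 (adjusted p = 0.0412), lost its call on leaving out any of 7 libraries (3B3-3l 2i replicates 1 and 2, 3B3-3l serum replicates 2 and 3, J1 2i replicates 1 and 2 and J1 serum replicate 2), with values of -0.34 to -0.25 and adjusted p of 0.0537 to 0.105.

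**Figure D3:**
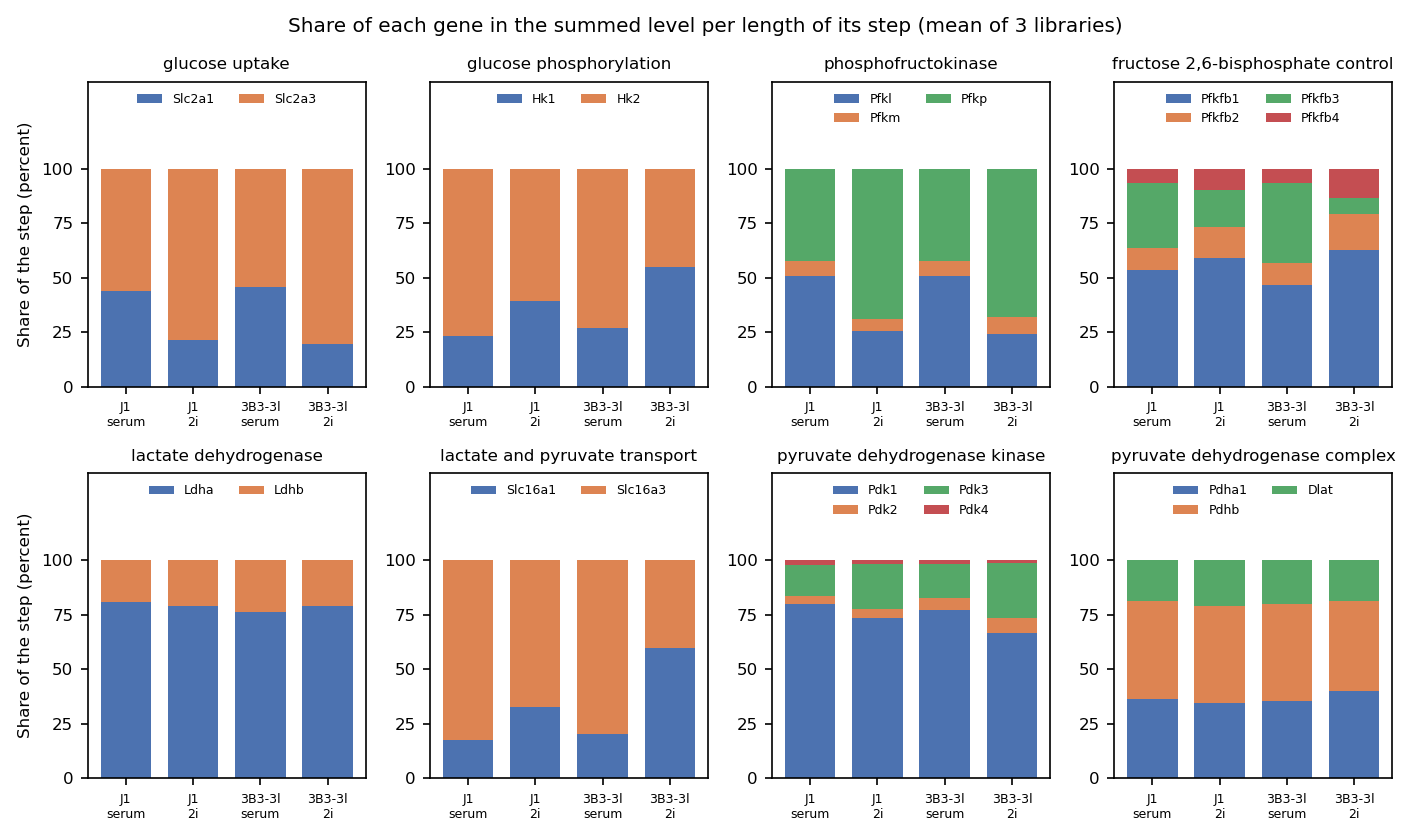
Share of each gene (stacked bars, percent of the summed level per length of its step, mean of 3 libraries) in the 4 groups, for 8 steps. In 2i the share of Slc2a3, Hk1, Pfkp and Slc16a1 is larger in both lines, and the share of Pfkfb3 smaller, while lactate dehydrogenase keeps between 76.1% and 80.8% Ldha.

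Aldolase splits fructose 1,6-bisphosphate, and Aldoa held at least 96.6% of its level per length in every group. Aldoa stood at 1770, 1506 and 1739 CPM in J1 serum, 1442, 1431 and 1725 in J1 2i, 1896, 1860 and 1796 in 3B3-3l serum and 1157, 1262 and 1308 in 3B3-3l 2i. The J1 groups overlapped and the 3B3-3l groups did not. Aldoa was not called in J1, at -0.13 ± 0.08 (adjusted p = 0.162), and fell in 3B3-3l, at a log2 fold change of -0.58 ± 0.08 (adjusted p = 6.66e-06). Without J1 2i replicate 3 or J1 serum replicate 2, Aldoa was called lower in J1 too (-0.22 to -0.20, adjusted p 0.011 to 0.0384). Aldoc, at 37 to 70.1 CPM, rose in J1, at a log2 fold change of 0.57 ± 0.08 (adjusted p = 2.28e-05), and was not called in 3B3-3l, at -0.14 ± 0.09 (adjusted p = 0.152), with a difference of -0.71 ± 0.12 (adjusted p = 0.000316).

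Tpi1 (ENSMUSG00000023456, chromosome 6, 124810586 to 124814158), which interconverts the triose phosphates, changed in opposite directions in the lines. It stood at 608, 531 and 628 CPM in J1 serum, 734, 753 and 931 in J1 2i, 616, 619 and 591 in 3B3-3l serum and 298, 312 and 335 in 3B3-3l 2i. Serum libraries of both lines overlapped, J1 2i libraries lay above them and 3B3-3l 2i libraries below. Tpi1 rose in J1, with a log2 fold change of 0.45 ± 0.08 (adjusted p = 0.000167), and fell in 3B3-3l, at -0.95 ± 0.08 (adjusted p = 4.97e-08). The difference of the effects was -1.40 ± 0.12 (adjusted p = 4.13e-07), and between the lines Tpi1 differed by -1.35 ± 0.08 (adjusted p = 5.57e-09) in 2i and was not called in serum, at 0.05 ± 0.08 (adjusted p = 0.689).

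Gapdh, often used as a constant reference gene, ranged from 436 to 753 CPM. It rose in J1, with a log2 fold change of 0.31 ± 0.05 (adjusted p = 0.000113), and fell in 3B3-3l, at -0.33 ± 0.05 (adjusted p = 5.92e-05). Its reads are split with 81 near-identical copies in the genome (at least 90% identity over at least 300 bases), which hold 87.4% to 88.6% of the reads of gene and copies together. Most of these stand under the copy Gm3200. With all copies added, Gapdh stood at 4958, 4521 and 4912 CPM in J1 serum, 5757, 5603 and 6351 in J1 2i, 4773, 4945 and 4562 in 3B3-3l serum and 3555, 3963 and 3989 in 3B3-3l 2i. The direction in each line was the same, at 0.30 ± 0.06 (adjusted p = 0.000586) in J1 and -0.31 ± 0.06 (adjusted p = 0.000409) in 3B3-3l.

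Pgk1 (ENSMUSG00000062070, chromosome X, 106187100 to 106203699), which makes the first ATP of the pathway, stood at 1178, 1071 and 1236 CPM in J1 serum, 771, 829 and 919 in J1 2i, 1360, 1491 and 1511 in 3B3-3l serum and 669, 681 and 732 in 3B3-3l 2i. In each line all 2i libraries lay below all serum libraries. Pgk1 fell in both lines, with log2 fold changes of -0.47 ± 0.07 (adjusted p = 2.33e-05) in J1 and -1.07 ± 0.07 (adjusted p = 1.61e-09) in 3B3-3l, and the effects differed by -0.60 ± 0.10 (adjusted p = 0.000263). Pgam1, the mutase that holds at least 98.6% of the level per length of its step, stood at 1301, 1277 and 1316 CPM in J1 serum, 964, 971 and 1141 in J1 2i, 1422, 1448 and 1377 in 3B3-3l serum and 913, 957 and 960.5 in 3B3-3l 2i. It fell in both lines, with log2 fold changes of -0.34 ± 0.06 (adjusted p = 0.000106) in J1 and -0.59 ± 0.06 (adjusted p = 2.83e-07) in 3B3-3l. The difference of the effects, -0.25 ± 0.08 (adjusted p = 0.0332), lost its call without 3B3-3l 2i replicate 1 or 3 or 3B3-3l serum replicate 1 or 2 (-0.26 to -0.22, adjusted p 0.0509 to 0.082). Pgam2, the muscle form, stood at 3.96, 3.76 and 3.23 CPM in J1 serum, 5.72, 5.26 and 7.22 in J1 2i, 1.54, 1.36 and 1.21 in 3B3-3l serum and 2.26, 3.2 and 2.58 in 3B3-3l 2i. Its level was low, and it was the clearest exception in serum, where all 3B3-3l libraries lay under all J1 libraries. Pgam2 rose in 2i by 0.73 ± 0.14 (adjusted p = 0.00034) in J1 and 0.97 ± 0.18 (adjusted p = 0.000153) in 3B3-3l, and was lower in 3B3-3l than in J1 in both media, at -1.41 ± 0.17 (adjusted p = 1e-05) in serum and -1.17 ± 0.15 (adjusted p = 1.01e-05) in 2i.

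Enolase makes phosphoenolpyruvate. Eno1, the ubiquitous form, stood at 1940, 1823 and 1896 CPM in J1 serum, 1027, 1053 and 1295 in J1 2i, 2158, 2029 and 1951 in 3B3-3l serum and 1064, 1148 and 1125 in 3B3-3l 2i. It fell in 2i without overlap, with log2 fold changes of -0.75 ± 0.07 (adjusted p = 2.55e-07) in J1 and -0.88 ± 0.07 (adjusted p = 3.33e-08) in 3B3-3l, and the lines were not called different in either medium. 3 near-identical copies hold 52.8% to 56% of the reads of Eno1 and copies, mostly under Gm5506, and with these added the changes were -0.71 ± 0.08 (adjusted p = 4.6e-07) and -0.91 ± 0.08 (adjusted p = 2.19e-08). The muscle form Eno3 (ENSMUSG00000060600, chromosome 11, 70653125 to 70662513) stood at 26.7, 26 and 27.2 CPM in J1 serum, 12.7, 11.1 and 12.1 in J1 2i, 41.3, 35.1 and 33.6 in 3B3-3l serum and 7.53, 8.04 and 7.17 in 3B3-3l 2i. The groups did not overlap, and 3B3-3l was highest in serum and lowest in 2i, as for Slc2a1 and Pfkfb3. Eno3 fell in both lines, with log2 fold changes of -1.15 ± 0.08 (adjusted p = 3.04e-09) in J1 and -2.27 ± 0.08 (adjusted p = 1.14e-12) in 3B3-3l, a difference of -1.12 ± 0.11 (adjusted p = 3.14e-06). The neuronal form Eno2 stood at 9.36, 8.27 and 10.2 CPM in J1 serum, 11, 12 and 11 in J1 2i, 10.8, 12.3 and 9.48 in 3B3-3l serum and 5.14, 4.96 and 4.98 in 3B3-3l 2i. The 3B3-3l 2i libraries lay below all others. Eno2 was called higher in J1 at 0.29 ± 0.10 (adjusted p = 0.0143), a call lost without J1 2i replicate 2 or J1 serum replicate 2 (0.21 to 0.24, adjusted p 0.0558 to 0.0832), and fell in 3B3-3l, at a log2 fold change of -1.11 ± 0.10 (adjusted p = 8.56e-08).

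Pyruvate kinase makes pyruvate and ATP, and Pkm (ENSMUSG00000032294, chromosome 9, 59656576 to 59679372) encodes its M1 form, typical of differentiated muscle and brain, and its M2 form, typical of embryonic and dividing cells, by a choice between mutually exclusive exons. Pkm had the highest level per length of the 34 members in every group, with means of 1880 CPM per kb in J1 serum, 1310 in J1 2i, 2030 in 3B3-3l serum and 1170 in 3B3-3l 2i, leaving aside Gapdh and Eno1, whose reads are shared with copies. It stood at 4399, 3963 and 4406 CPM in J1 serum, 2859, 2745 and 3291 in J1 2i, 4747, 4662 and 4317 in 3B3-3l serum and 2504, 2691 and 2785 in 3B3-3l 2i, and all 2i libraries lay under all serum libraries. It fell in both lines, with log2 fold changes of -0.52 ± 0.07 (adjusted p = 7.78e-06) in J1 and -0.78 ± 0.07 (adjusted p = 7.18e-08) in 3B3-3l, and the difference of the effects was -0.26 ± 0.10 (adjusted p = 0.0542). That difference was called without 3B3-3l serum replicate 3, J1 2i replicate 2 or J1 serum replicate 1 or 3 (-0.31 to -0.30, adjusted p 0.0222 to 0.0451), in the DESeq2 test and under other filters on low counts.

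The alternative exons of Pkm are shown because they distinguish the isoforms. Both are 167 bases long and lie side by side on chromosome 9. Capitals mark the 64 positions at which they differ (61.7% identity), read from GENCODE transcripts.
Pkm M1 exon: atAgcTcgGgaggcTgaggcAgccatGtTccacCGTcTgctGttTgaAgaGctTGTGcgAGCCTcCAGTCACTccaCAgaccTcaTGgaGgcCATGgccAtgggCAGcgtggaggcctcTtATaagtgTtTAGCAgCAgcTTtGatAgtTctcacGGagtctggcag
Pkm M2 exon: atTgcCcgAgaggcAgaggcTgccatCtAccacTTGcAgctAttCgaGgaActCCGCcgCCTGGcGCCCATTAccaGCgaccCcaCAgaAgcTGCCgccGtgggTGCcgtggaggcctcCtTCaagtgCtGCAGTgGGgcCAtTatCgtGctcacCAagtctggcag
The M1 transcript held 3.44% ± 0.0703 (SD, n = 3) of the TPM of Pkm in J1 serum, 1.97% ± 0.24 in J1 2i, 2.45% ± 0.11 in 3B3-3l serum and 2.52% ± 0.255 in 3B3-3l 2i. J1 serum libraries were above all others, at 3.36% to 3.49%, and the 3B3-3l groups overlapped. The J1 media differed without overlap (exact permutation p = 0.1, 0.13 adjusted). M1 rests on 2339 to 6400 estimated reads per library. The transcript models from which the exons were read are 2221 bases (M1) and 2192 bases (M2) long and so also differ outside this exon. The quantified M1 transcript was 2432 bases long, so its model was not the one read here. The estimates depend on how the quantification split the reads that both isoforms could give.

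Lactate dehydrogenase reduces pyruvate to lactate and restores NAD. Ldha, the form of fast glycolysis, stood at 1814, 1679 and 1876 CPM in J1 serum, 1026, 1074 and 1313 in J1 2i, 1825, 1885 and 1754 in 3B3-3l serum and 809.9, 839.8 and 896 in 3B3-3l 2i. The 2i libraries lay under the serum libraries in each line. Ldha fell in both lines, with log2 fold changes of -0.65 ± 0.08 (adjusted p = 1.97e-06) in J1 and -1.10 ± 0.08 (adjusted p = 3.91e-09) in 3B3-3l, a difference of -0.45 ± 0.11 (adjusted p = 0.00517). Ldhb, the heart form, stood at 348, 303 and 373 CPM in J1 serum, 248, 219 and 249.9 in J1 2i, 455, 486 and 436 in 3B3-3l serum and 178, 184 and 179 in 3B3-3l 2i. It fell in both lines, with log2 fold changes of -0.51 ± 0.07 (adjusted p = 1.02e-05) in J1 and -1.34 ± 0.07 (adjusted p = 1.18e-10) in 3B3-3l, with a difference of -0.83 ± 0.10 (adjusted p = 1.46e-05), and in serum it was higher in 3B3-3l by 0.43 ± 0.07 (adjusted p = 0.000203). The share of Ldha in the pair stayed between 76.1% ± 0.372 in 3B3-3l serum and 80.8% ± 0.778 in J1 serum, with Ldha the larger part in every group.

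The monocarboxylate carriers move lactate and pyruvate with protons. MCT4 (Slc16a3, ENSMUSG00000025161, chromosome 11, 120948484 to 120959000) is the lactate exporter of strongly glycolytic cells and MCT1 (Slc16a1) the widespread form. Slc16a3 stood at 233, 205 and 244 CPM in J1 serum, 95.8, 108 and 137 in J1 2i, 199, 204 and 200.5 in 3B3-3l serum and 22.3, 23.2 and 34.6 in 3B3-3l 2i. The serum libraries of the lines lay close together, with 3B3-3l just below J1, and 3B3-3l 2i lay far below J1 2i. Slc16a3 fell in both lines, with log2 fold changes of -1.0 ± 0.14 (adjusted p = 7.81e-06) in J1 and -2.92 ± 0.15 (adjusted p = 6.1e-11) in 3B3-3l, the lowest fold change of any member. The effects differed by -1.92 ± 0.20 (adjusted p = 3.08e-06), and in 2i the lines differed by -2.09 ± 0.15 (adjusted p = 1.94e-08), while in serum they were not called different, at -0.17 ± 0.13 (adjusted p = 0.327). Slc16a1, at 92.1 to 143 CPM, fell in 3B3-3l, at a log2 fold change of -0.46 ± 0.05 (adjusted p = 1.12e-06). In J1 it was called higher at 0.13 ± 0.05 (adjusted p = 0.0441), a small change whose call was lost under 14 alternatives, 7 of them a single library left out (0.11 to 0.13, adjusted p 0.0566 to 0.118). Slc16a3 made up 82.3% ± 1.64 of the summed level per length of both carriers in J1 serum, 67.1% ± 3.4 in J1 2i, 79.9% ± 1.06 in 3B3-3l serum and 40.4% ± 6.28 in 3B3-3l 2i.

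Pyruvate dehydrogenase kinases inhibit the pyruvate dehydrogenase complex and so the oxidation of pyruvate to acetyl-CoA. Pdk1, which held most of the level per length of the 4 kinases, stood at 198, 181 and 204 CPM in J1 serum, 134, 149 and 149.7 in J1 2i, 184, 198 and 206 in 3B3-3l serum and 92.1, 89 and 100.4 in 3B3-3l 2i. All 2i libraries lay under the serum libraries in each line. Pdk1 fell in both lines, with log2 fold changes of -0.43 ± 0.06 (adjusted p = 2.01e-05) in J1 and -1.06 ± 0.06 (adjusted p = 5.69e-10) in 3B3-3l, a difference of -0.63 ± 0.09 (adjusted p = 7.78e-05). Pdk4, induced by fasting in muscle and liver, stood at 7.83, 7.26 and 9.16 CPM in J1 serum, 5.97, 5.95 and 5.39 in J1 2i, 6.21, 5.64 and 6.85 in 3B3-3l serum and 2.88, 2.83 and 3.02 in 3B3-3l 2i. It fell in both lines, with log2 fold changes of -0.48 ± 0.10 (adjusted p = 0.000515) in J1 and -1.10 ± 0.11 (adjusted p = 2.64e-07) in 3B3-3l. Pdk2, at 7.09 to 13.5 CPM, was not called in J1, at -0.06 ± 0.07 (adjusted p = 0.511), and fell in 3B3-3l, at a log2 fold change of -0.54 ± 0.07 (adjusted p = 4.18e-06). In serum Pdk2 was higher in 3B3-3l by 0.71 ± 0.07 (adjusted p = 1.45e-06). Pdk3, at 33.3 to 41.4 CPM, was not called in either line, at 0.16 ± 0.07 (adjusted p = 0.0678) in J1 and -0.13 ± 0.07 (adjusted p = 0.14) in 3B3-3l, with a difference of -0.28 ± 0.10 (adjusted p = 0.0431). The calls of Pdk3 turned on single libraries. The difference was not called on leaving out any of 8 libraries (-0.30 to -0.22, adjusted p 0.0628 to 0.113), and without 3B3-3l serum replicate 1 Pdk3 was called lower in 3B3-3l (-0.21, adjusted p 0.0132). It was called higher in J1 without that library, J1 2i replicate 1 or J1 serum replicate 3 (0.16 to 0.20, adjusted p 0.0301 to 0.0465). Pdk1 held 79.9% ± 0.668 of the step in J1 serum, 73.4% ± 0.958 in J1 2i, 77.0% ± 0.665 in 3B3-3l serum and 66.6% ± 0.401 in 3B3-3l 2i.

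The genes of the pyruvate dehydrogenase complex itself had small fold changes. Pdhb, the beta subunit of its first enzyme, had the highest level per length of the 3 subunit genes and stood at 145, 150.3 and 141 CPM in J1 serum, 146, 139.8 and 150.0 in J1 2i, 166, 173 and 174 in 3B3-3l serum and 161, 161 and 164 in 3B3-3l 2i. It was not called in J1, at 0.00 ± 0.04 (adjusted p = 0.982), or in 3B3-3l, at -0.07 ± 0.04 (adjusted p = 0.149). Dlat, the acetyltransferase core, stayed at 87.8 to 109 CPM and was not called in either line, at -0.03 ± 0.05 (adjusted p = 0.589) and -0.04 ± 0.05 (adjusted p = 0.473). With length offsets Dlat was called higher in J1, at 0.18 (adjusted p = 0.00307). Pdha1, the alpha subunit that the kinases phosphorylate, stood at 235, 243 and 236 CPM in J1 serum, 226, 219 and 228 in J1 2i, 274, 265 and 271 in 3B3-3l serum and 317, 314 and 304 in 3B3-3l 2i. The 3B3-3l libraries lay above the J1 libraries in both media. Pdha1 rose in 2i in 3B3-3l by 0.21 ± 0.04 (adjusted p = 0.000365) and was not called in J1, at -0.09 ± 0.04 (adjusted p = 0.0774). It was the 1 member whose 2i effect was called higher in 3B3-3l, by 0.29 ± 0.06 (adjusted p = 0.00121). All 3 subunit genes were higher in 3B3-3l than in J1 in both media, by 0.18, 0.23 and 0.18 in serum and 0.48, 0.16 and 0.17 in 2i for Pdha1, Pdhb and Dlat, against the direction of most members in 2i. In 2i the call of Dlat was lost with length offsets (0.11, adjusted p = 0.0537) and without 3B3-3l 2i replicate 2 (0.14, adjusted p = 0.0506), and that of Pdhb without the filter on low counts (0.14, adjusted p = 0.0513) and without the same library (0.14, adjusted p = 0.0501).

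Together the 34 members took 1.85% ± 0.104 (SD, n = 3) of all reads in J1 serum, 1.67% ± 0.0851 in J1 2i, 2.11% ± 0.032 in 3B3-3l serum and 1.24% ± 0.0562 in 3B3-3l 2i. With copies included the shares were 2.5% ± 0.138, 2.34% ± 0.122, 2.79% ± 0.05 and 1.7% ± 0.0856. The 3B3-3l groups were the extremes on both scales, and the J1 groups overlapped. Within a group, members often shared their lowest or highest library. J1 serum replicate 2 was the lowest of its group for 27 of 34 members, with a median log2 deviation from the group mean of -0.11. Replicate 3 was the highest for 24 members in J1 serum (0.08), 25 in J1 2i (0.06), 22 in 3B3-3l 2i (0.05) and 8 in 3B3-3l serum (-0.02). 3B3-3l 2i replicate 1 was the lowest for 20. Ranks over all genes were not computed, so whether this is particular to the members was not tested.

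**Figure D4:**
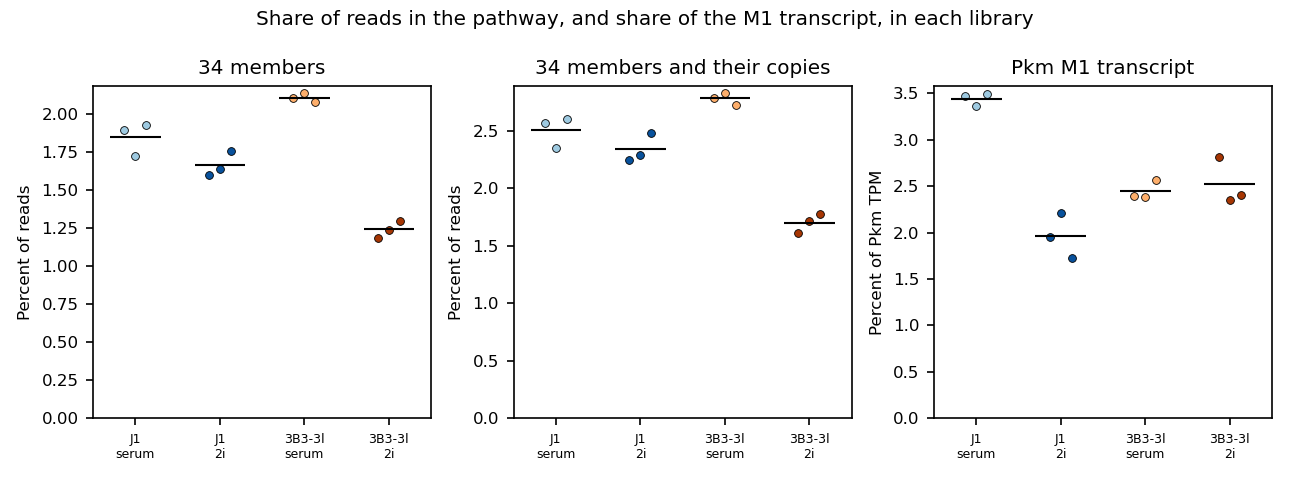
Percent of all reads in the 34 members (left) and in the members and their near-identical copies (middle). The right panel shows the M1 transcript as a percent of the summed TPM of the Pkm M1 and M2 transcripts. Points are the 12 libraries, with a bar at the group mean. The read share is lowest in 3B3-3l 2i and highest in 3B3-3l serum, and the M1 share is highest in J1 serum.

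Other genes of the pathway and its surroundings were read from lists of the same kind. Of 28 further glycolysis and pyruvate entry genes, 24 were tested. 11 rose and 6 fell in J1 (backgrounds 33.2% and 32.9%), and 9 rose and 12 fell in 3B3-3l (backgrounds 32.7% and 32.7%), with medians of 0.10 and -0.24 against 0.01 and 0.01 over all genes. The tissue-restricted Hk3 and Hkdc1 had the largest fitted changes in J1. Hk3, at 0.308 ± 0.0376 CPM in J1 serum, was at or under 3 counts in every 2i library, so no fold is given. Hkdc1 stood at 0.322 ± 0.138 CPM in J1 serum and 0.11 ± 0.0317 in J1 2i. Of the 9 pentose phosphate genes, 3 rose and 2 fell in J1, and 3 rose and 3 fell in 3B3-3l, against backgrounds of 33.2% and 32.9% in J1 and 32.7% and 32.7% in 3B3-3l. Rpe, the ribulose phosphate epimerase, fell in both lines, with log2 fold changes of -0.78 ± 0.05 (adjusted p = 4.09e-09) in J1 and -0.69 ± 0.05 (adjusted p = 1.32e-08) in 3B3-3l, and Tktl1 was not called, at -0.34 ± 0.25 (adjusted p = 0.233) in J1.

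Gluconeogenesis, which runs the pathway backwards, had 6 of 8 genes tested. 3 rose and 2 fell in J1 (backgrounds 33.2% and 32.9%), and 4 rose and 1 fell in 3B3-3l (backgrounds 32.7% and 32.7%). Pck2, the mitochondrial phosphoenolpyruvate carboxykinase, rose in both lines, with log2 fold changes of 1.49 ± 0.09 (adjusted p = 7.08e-10) in J1 and 0.96 ± 0.09 (adjusted p = 1.01e-07) in 3B3-3l. Slc37a4, the glucose 6-phosphate carrier of the endoplasmic reticulum, rose by 1.07 ± 0.10 (adjusted p = 8.91e-08) and 0.48 ± 0.10 (adjusted p = 0.000432).

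Many glycolytic genes belong to the hypoxia response, whose genes outside glycolysis were read as a list too. Of 18 genes, 7 rose and 10 fell in J1, and 1 rose and 15 fell in 3B3-3l, with medians of -0.34 and -0.86 against 0.01 and 0.01 over all genes (backgrounds 33.2% higher and 32.9% lower in J1, 32.7% and 32.7% in 3B3-3l). The difference of the effects was called lower for 13 of the 18 (background 18.3%), with a median of -1.24 against -0.03. Their summed level was 1080 to 1250 CPM in J1 serum, 1010 to 1090 in J1 2i, 1370 to 1540 in 3B3-3l serum and 781 to 841 in 3B3-3l 2i. The 3B3-3l groups were the extremes, as for the members' share of reads. Whether these patterns are related was not tested. Car12, a carbonic anhydrase, stood at 9.77, 8.92 and 11.4 CPM in J1 serum, 1.64, 1.81 and 1.66 in J1 2i, 7.47, 8.36 and 9.48 in 3B3-3l serum and 0.337, 0.278 and 0.361 in 3B3-3l 2i, and fell in both lines, with log2 fold changes of -2.55 ± 0.12 (adjusted p = 4.3e-11) in J1 and -4.69 ± 0.17 (adjusted p = 8e-13) in 3B3-3l, a difference of -2.14 ± 0.23 (adjusted p = 5.98e-06). Adm, the peptide hormone adrenomedullin, stood at 2.69 ± 0.847 CPM in J1 serum, 0.622 ± 0.166 in J1 2i, 4.08 ± 0.312 in 3B3-3l serum and 0.106 ± 0.0374 in 3B3-3l 2i, the last near the limit of 3 counts.

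Among 14 regulators of glycolytic genes, 3 rose and 7 fell in J1 (backgrounds 33.2% and 32.9%), and 3 rose and 8 fell in 3B3-3l (backgrounds 32.7% and 32.7%), with medians of -0.26 and -0.38. The largest changes in J1 were those of the MYC family. Mycn stood at 276, 277 and 276 CPM in J1 serum, 67.1, 64.2 and 72.1 in J1 2i, 195, 195 and 176 in 3B3-3l serum and 58.1, 56.3 and 58.3 in 3B3-3l 2i. It fell in both lines, with log2 fold changes of -2.03 ± 0.05 (adjusted p = 4.14e-14) in J1 and -1.71 ± 0.05 (adjusted p = 2.02e-13) in 3B3-3l. Myc stood at 49.4, 46.8 and 40.9 CPM in J1 serum, 12.2, 14.5 and 17.1 in J1 2i, 36.7, 31.8 and 30.3 in 3B3-3l serum and 19.6, 21.6 and 19.9 in 3B3-3l 2i. It fell in both lines, with log2 fold changes of -1.65 ± 0.11 (adjusted p = 1.18e-09) in J1 and -0.69 ± 0.10 (adjusted p = 2.21e-05) in 3B3-3l. For Mycn and Myc the fall was smaller in 3B3-3l, by 0.31 ± 0.07 (adjusted p = 0.00423) and 0.96 ± 0.15 (adjusted p = 0.000141). Most members had a negative difference of effects. Any part of either gene in the results of the members was not tested.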

How the data were processed

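Stranded poly(A) RNA libraries were analysed, 3 per group, with groups and replicate numbers taken from the sample titles. The authors quantified reads with Sailfish in a stranded mode against mm10 transcript models and summarised them with tximport, giving the deposited gene table of estimated counts, which are not scaled for depth or length. Their methods name RefSeq models, while identifiers are those of Ensembl. The deposited transcript tables hold TPM and estimated reads per transcript. The labels do not say which of the sequencing pools held which library.

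Estimated counts were rounded to whole numbers and tested with edgeR (version 4.0.16, R 4.3.3): filterByExpr (17885 genes), TMM factors of 0.97 to 1.038, 1 coefficient per group over all 12 libraries, the quasi-likelihood test and Benjamini-Hochberg adjustment over all genes tested. Level per length divides CPM by the read-weighted effective length. Shares of a step were compared by exact two-sided permutation tests. Near-identical copies were found with blastn (version 2.17.0) among GENCODE transcripts of an older build, so copies outside that set were not added. Symbols were known for 85.6% of genes (98.4% of reads), Pkm under its older name. Floors of 3 counts cover counting error only, since reads carried no molecular identifiers.

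Members and lists were chosen with earlier results of these data known. Values in every library are given for members with an absolute log2 fold change of at least 1 in a called contrast at 1 CPM or more, and for the member with the highest level per length of each step with 2 or more members. For each other list, the 2 genes with the largest change in J1 are named. Gm3200, Gm5506 and the fibroblast genes at 0 are named for their values. Alternatives were DESeq2 (version 1.42.0) size factors and Wald test, other filters on low counts, a model of only the 6 libraries at issue, a replicate block, length offsets, copies added, TPM in place of reads per length, and leaving out each library. Adding all copies was chosen after seeing the data. Over all genes tested, replicate numbers did not pair the samples.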

Additional observations from a re-analysis of the deposited data

Results flagged for a closer look

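For 26 of the 34 members the log2 effect of 2i differed between the lines, with 3 libraries per group. Calls are from the interaction test of edgeR at an adjusted p under 0.05. Over all genes tested, 18.3% were called lower and 16.3% higher. Values are the 3B3-3l effect minus the J1 effect. For uptake and trapping of glucose, the difference was -1.62 for Slc2a1, -1.34 for Slc2a3, -0.41 for Hk1 and -1.02 for Hk2. It was -0.34 for Gpi1, -0.34 for Pfkl and -0.34 for Pfkp. For the PFKFB enzymes it was -1.92 for Pfkfb3 and -0.32 for Pfkfb2. In the middle of the pathway it was -0.45 for Aldoa, -0.71 for Aldoc, -1.40 for Tpi1, -0.63 for Gapdh and -0.60 for Pgk1. In the lower part it was -0.25 for Pgam1, -1.40 for Eno2 and -1.12 for Eno3. For lactate, it was -0.45 for Ldha, -0.83 for Ldhb, -0.58 for Slc16a1 and -1.92 for Slc16a3. For the pyruvate dehydrogenase kinases it was -0.63 for Pdk1, -0.49 for Pdk2, -0.28 for Pdk3 and -0.61 for Pdk4. Among these 26 members, Pdha1 alone had a positive difference, 0.29. The calls of Pfkl, Pfkfb2, Pgam1 and Pdk3 were lost on leaving out some single libraries, as given above. With length offsets those of Pfkp, Pfkfb2, Pdk2 and Pdk3 were lost.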

How the results depend on the processing

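Of 3536 log2 fold changes of members under the alternatives, 3428 kept their side of the threshold, 65 lost a call, 42 gained one and 1 reversed. A change of direction was counted only for values called in the main fit or in the alternative. The reversed value was that of Dlat in J1, 0.18 (adjusted p = 0.00307) with length offsets. Of 792 recomputed counts, medians and shares, 790 stayed within 1.5 times the value reported for a count, or within 1 SD between replicates for a median or share. The exceptions were the count of members lower in 3B3-3l than in J1 in serum, which was 1 with length offsets, where Pdk4 lost its call, and the share of Pfkfb3 in the PFKFB genes in 3B3-3l serum, which was 36.15% from TPM, a move larger than its small SD. For shares, leaving out 1 of 3 libraries cannot move the mean by 1 SD of those libraries, so those checks could not fail. Under the alternatives the count of members called lower in 3B3-3l 2i was 22 to 25, and that of lower differences of the 2i effects was 21 to 26. Between the lines, 18 to 24 members were called lower in 3B3-3l in 2i and 12 to 15 higher in serum. Adding all near-identical copies changed no call. Over all genes tested, same-numbered replicates did not deviate together (18 pairs, r from -0.118 to 0.062), so the numbers were not taken as pairs. Among the members, replicate 3 was most often the highest library in every group but 3B3-3l serum, as given above. With the replicate number as a block, 24 differences of the 2i effects were called lower, and 3 calls were lost (Gpi1 between the lines in 2i, Pfkfb2 for the difference of the effects, and Slc16a1 in J1). No other member call changed with the block. Between the lines in 2i, calls were lost without 3B3-3l 2i replicate 2 for Dlat (0.14, adjusted p = 0.0506) and Pdhb (0.14, adjusted p = 0.0501), without 3B3-3l 2i replicate 1 or J1 2i replicate 2 for Pfkp (-0.19 to -0.18, adjusted p 0.064 to 0.0818), and without these or 3B3-3l 2i replicate 3 for Pdk2 (0.17 to 0.22, adjusted p 0.0527 to 0.0867). Length offsets ended 9 calls of members. For the difference of the effects these were Pdk2 (-0.26, adjusted p = 0.167), Pfkp (-0.29, adjusted p = 0.0739), Pfkfb2 (-0.22, adjusted p = 0.148) and Pdk3 (-0.30, adjusted p = 0.0575), and the others were Pdk4 in serum (-0.26, adjusted p = 0.137), Pfkp (-0.16, adjusted p = 0.138) and Dlat in 2i, and Eno2 and Slc16a1 in J1. They gave Dlat a called difference (-0.24, adjusted p = 0.0111). The cause was not tested. With 3 libraries per group, exact tests of shares could not go below p = 0.1.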
